A study of Homo sapiens with 3 samples.

Results

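To examine where the fusion protein PRCC-TFE3 lay at genes of the vacuolar ATPase (V-ATPase), 8 subunit genes were followed: *ATP6V1A*, *ATP6V1B2*, *ATP6V1C1*, *ATP6V1D* and *ATP6V1H* of the V1 sector, and *ATP6V0A1*, *ATP6V0D1* and *ATP6V0D2* of the V0 sector. The 8 genes were chosen with earlier results of these data known. The members were the chromatin immunoprecipitation sequencing (ChIP-seq) peaks that overlapped one of these genes or lay within 10 kb of it, by hg19 positions and without regard to the strength of a peak. In narrowPeak form these were 61 of 109205 peaks in ChIP replicate 1 and 42 of 81300 peaks in ChIP replicate 2. In BED form they were 49 of 84248 and 31 of 63535.

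The V-ATPase is a proton pump built from a cytosolic V1 sector, which hydrolyses ATP, and a membrane-embedded V0 sector, through which protons pass. It acidifies lysosomes and endosomes, and in some renal cells it also secretes acid across the plasma membrane. Many of its subunit genes belong to the network of lysosomal genes that TFE3 and its relatives TFEB and MITF control through E-box elements, DNA motifs with the core CACGTG. PRCC-TFE3, the fusion that drives a form of TFE3-rearranged renal cell carcinoma, retains the DNA-binding part of TFE3.

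The data came from HK-2 cells, an immortalized line of human proximal tubule epithelium, with an HA-tagged PRCC-TFE3 transgene that doxycycline switches on. All 3 libraries were from cells exposed to doxycycline at 0.2 µg/mL for 24 h: 2 HA-PRCC-TFE3 ChIP libraries, described as biological replicates, and 1 input DNA library. The cell culture methods of the study and the sample labels name HA-PRCC-TFE3, whereas its ChIP-seq methods shorten the name to HA-TFE3. The name HA-PRCC-TFE3 was followed. Expression was forced from a transgene, cells without doxycycline were not analysed here, and input DNA was the only background. The ChIP libraries held an estimated 12235754 tags in replicate 1 and 7418533 tags in replicate 2, so that a site missing from replicate 2 may lie below its depth. With a single ChIP group no difference between conditions could be tested, and the same input library served for both ChIP libraries. Each value is therefore given per replicate, that of replicate 1 first, and intervals cover counting error only.

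The promoter sequences are shown first, because they tell whether an E-box lies near a gene start. The peaks were not placed on these sequences. RefSeq windows from 250 bases before to 50 bases after the start were matched by symbol, and 3 of the 8 genes had an entry. They are printed 5′ to 3′ on the strand of the gene, in the build GRCh38.p14, with capitals for a match, on either strand, to the E-box CACGTG, to the form TCACGTG that contains it, or to the M-box TCATGTG. The positions are chr16:67481108-67481407 (minus strand) for *ATP6V0D1*, chr14:67359755-67360054 (minus strand) for *ATP6V1D* and chr17:42458628-42458927 (plus strand) for *ATP6V0A1*.
ATP6V0D1: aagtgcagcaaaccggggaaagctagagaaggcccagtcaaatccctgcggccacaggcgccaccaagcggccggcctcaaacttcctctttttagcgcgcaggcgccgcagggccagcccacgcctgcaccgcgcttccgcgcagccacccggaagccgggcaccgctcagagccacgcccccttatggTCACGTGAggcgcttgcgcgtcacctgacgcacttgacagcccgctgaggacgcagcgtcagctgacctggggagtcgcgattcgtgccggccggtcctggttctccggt
ATP6V1D: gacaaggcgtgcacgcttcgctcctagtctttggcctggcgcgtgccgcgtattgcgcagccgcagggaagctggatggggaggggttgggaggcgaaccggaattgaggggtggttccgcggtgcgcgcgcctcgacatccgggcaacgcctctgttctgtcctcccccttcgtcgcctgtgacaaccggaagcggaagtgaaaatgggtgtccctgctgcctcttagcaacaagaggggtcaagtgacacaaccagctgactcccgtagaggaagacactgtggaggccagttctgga
ATP6V0A1: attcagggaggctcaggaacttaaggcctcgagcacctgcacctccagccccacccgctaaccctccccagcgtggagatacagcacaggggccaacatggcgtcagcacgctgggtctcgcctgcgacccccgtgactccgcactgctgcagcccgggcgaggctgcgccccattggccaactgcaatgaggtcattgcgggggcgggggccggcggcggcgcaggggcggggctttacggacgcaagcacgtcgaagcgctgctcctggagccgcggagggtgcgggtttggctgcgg

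Of the 3 promoters, only that of *ATP6V0D1* held one of the motifs. Its match read TCACGTG on both strands, and the first base of CACGTG lay 59 bases before the RefSeq start. For comparison, 7.26% of the 35116 RefSeq promoter windows held CACGTG, 3.71% held TCACGTG and 2.92% held TCATGTG. Absence of a match says only that these letters were not in this window.

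The remaining V-ATPase subunit and accessory genes were considered by sequence alone, since positions for them in the build of the peaks were not used here. Of 17 such genes, 15 had a promoter entry, and 3 of these held CACGTG, in each case as TCACGTG. This count is per gene, and several genes had more than 1 listed promoter. It therefore cannot be set directly against the shares of promoter windows given above. *ATP6V0B*, which encodes a proteolipid of the V0 ring, had 2 copies, beginning 57 and 39 bases before the start. *ATP6V1G1*, a stalk subunit of V1, had 1 copy, beginning 58 bases before the start. *ATP6V0E2*, a small V0 subunit, had it in 2 of its 3 listed promoters. TCATGTG was found in 1 of the 2 listed promoters of *ATP6V0C*, another ring proteolipid, and in no other gene of the 17 with an entry.

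Next, the peaks were examined at the gene starts, taken as the 5′ ends of the hg19 gene positions that defined the windows. Overlapping peaks (1 bp or more) were joined across the ChIP libraries, and a joined region counted as shared if both libraries contributed to it. All 8 genes had a shared region within 1000 bp of the start, and each had exactly 1. Over chromosomes 1 to 22 and X, 5.06% of positions had a shared region within 1000 bp. That share is for the genome as a whole, and a share for gene starts in general was not analysed here. Because the genes were chosen with earlier results of these data known, the count does not stand for V-ATPase genes in general. Besides these, 4 regions within 1000 bp of a start came from a single replicate. In replicate 1 they lay at *ATP6V1A* and *ATP6V0A1*, with fold enrichments of 4.79 and 7.95. In replicate 2 they lay at *ATP6V1D* and *ATP6V0D1*, with 5.12 and 4.01. At the 8 shared starts the median fold enrichment at the summit, as the peak caller gave it, was 15.54 in replicate 1 and 16.33 in replicate 2. Over all peaks of the lists the medians were 7.49 and 7.32, and over all shared regions they were 10.06 and 7.99. A median for gene starts in general was likewise not analysed here, so these values do not set the 8 starts apart from other starts.

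**Figure D1:**
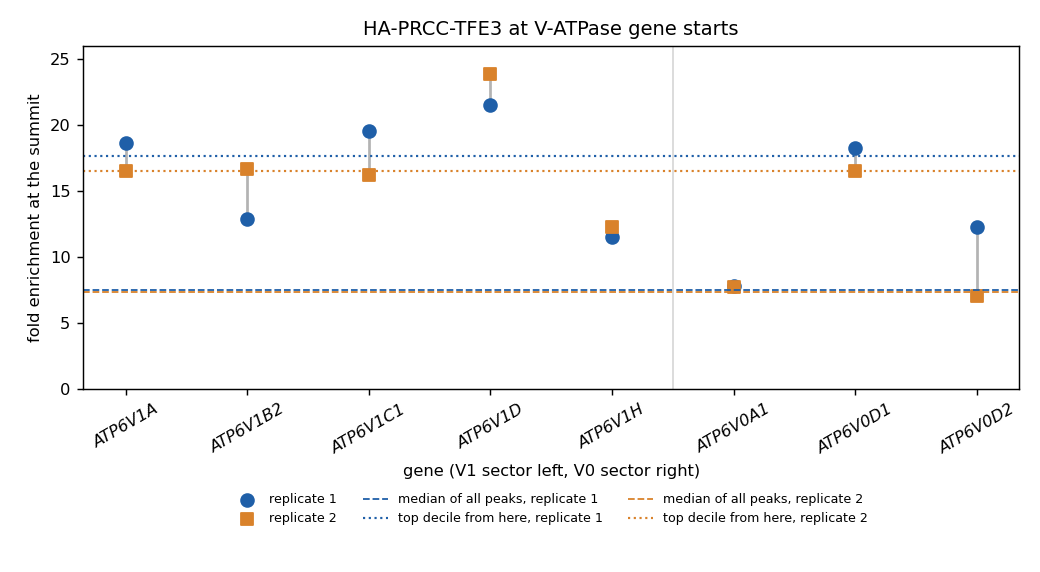
Fold enrichment at the summit of the shared region at each gene start, for replicate 1 (circles) and replicate 2 (squares), with a line joining both values. Dashed lines mark the median of all peaks of each list (7.49 and 7.32) and dotted lines the fold above which the top decile lies (17.65 and 16.54). *ATP6V1D* stands highest in both replicates, and *ATP6V0A1* and *ATP6V0D2* include the lowest values.

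*ATP6V1A* encodes the catalytic A subunit of the V1 head. Its region, at chromosome 3 from 113464992 to 113465835, was enriched 18.67-fold in replicate 1 and 16.51-fold in replicate 2. It was the widest of the shared start regions at 844 bp, and its summits were 386 bp apart, at 295 bp before the start in replicate 1 and 681 bp before it in replicate 2. The replicates thus shared the region but not its summit, and their BED peaks there did not overlap. A further shared region lay 1.7 kb upstream, with fold enrichments of 12.71 and 8.88. *NAA50*, an acetyltransferase gene, starts on the opposite strand within 1000 bp of *ATP6V1A* in the reference annotation (GENCODE v44, hg38), so the region cannot be assigned to either gene alone.

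*ATP6V1B2*, the B subunit of the V1 head in most tissues, was enriched 12.84-fold in replicate 1 and 16.68-fold in replicate 2 at chromosome 8 from 20054315 to 20054961. The summits, 65 bp and 62 bp inside the gene, were 3 bp apart. It was followed by shared regions at 1.5 kb and 3.8 kb inside the gene. The former had fold enrichments of 11.23 and 7.70, and the latter had 11.77 and 6.42. In replicate 1 the 3 regions were thus close to each other in strength, whereas in replicate 2 the start stood above the other two.

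*ATP6V1C1*, a peripheral stalk subunit of V1, had fold enrichments of 19.53 and 16.18 at chromosome 8 from 104032979 to 104033524. Its summits lay 8 bp and 22 bp before the start. No other region of this gene was shared, although replicate 1 had 4 further peaks. A noncoding RNA gene starts on the opposite strand within 1000 bp.

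The strongest start was that of *ATP6V1D*, which encodes a subunit of the central rotor. Its region lay at chromosome 14 from 67826443 to 67827181. The fold enrichment there was 21.54 in replicate 1 and was 23.87 in replicate 2. These values exceeded 94.6% and 97.4% of the peaks in their lists. The summits lay 73 bp and 81 bp inside the gene, 8 bp apart. As at *ATP6V1A*, another gene starts on the opposite strand within 1000 bp, namely *EIF2S1*, which encodes a translation initiation factor subunit.

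*ATP6V1H* encodes a regulatory subunit of V1 and was the longest gene, at 127.8 kb. At its start, chromosome 8 from 54755713 to 54756063, the fold enrichments were 11.49 and 12.25. Shared regions 3.2 kb and 8.3 kb upstream were weaker, with 7.20 and 3.61 at the nearer and 7.49 and 5.13 at the farther one. *RGS20*, which encodes a regulator of G protein signalling, also lies in this window on the opposite strand, so these regions need not belong to *ATP6V1H*. Inside the gene no narrowPeak region was shared, although 6 regions of replicate 1 and 1 of replicate 2 lay there. In the BED lists, peaks of both replicates overlapped 110.7 kb inside the gene, with 10 and 8 tags.

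*ATP6V0A1* encodes an a subunit, the V0 component along which protons move. At its start, chromosome 17 from 40610629 to 40610975, the fold enrichments were 7.79 and 7.70. They exceeded 52.4% and 51.9% of the peaks, that is, they lay near the middle of both lists. Replicate 1 alone had another peak 502 bp inside the gene, with a fold enrichment of 7.95.

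*ATP6V0D1* encodes the ubiquitous d subunit that couples the V0 ring to the stalk. At chromosome 16 from 67514964 to 67515467 its fold enrichments were 18.24 and 16.48, with summits 108 bp and 65 bp before the start. This is the gene whose promoter sequence held TCACGTG, 59 bases before the RefSeq start. The peak and motif positions come from different builds and were not placed on each other. A noncoding RNA gene, *ATP6V0D1-DT*, starts in the opposite direction within 1000 bp.

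*ATP6V0D2* encodes the d subunit found in few tissues, among them kidney and osteoclasts. Its start region, at chromosome 8 from 87110900 to 87111191, had a fold enrichment of 12.30 in replicate 1 and 7.06 in replicate 2, the widest relative gap between replicates at any of the 8 starts. The former exceeded 76.7% of its list and the latter 45.2%. No other region of the gene was shared. Its paralogue *ATP6V0D1* was higher in both replicates, and the ranges of these paralogues did not overlap (16.48 to 18.24 against 7.06 to 12.30).

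The order of the starts was read against the spread between replicates. In fold enrichment *ATP6V1D* was above all others, since its lower value (21.54) exceeded the highest value elsewhere (19.53). Counting error of its tags, given below, did not separate it from *ATP6V1A*, *ATP6V1C1*, *ATP6V0D1* and *ATP6V1H* in either replicate. Nor did it separate *ATP6V1D* from *ATP6V1B2* in replicate 2 or from *ATP6V0A1* in replicate 1. The ranges of *ATP6V1A*, *ATP6V0D1*, *ATP6V1C1* and *ATP6V1B2* overlapped, so no order among them could be given. In fold enrichment *ATP6V1H* lay below these 4, but its higher value, 12.25, was close to the lower value of *ATP6V1B2*, 12.84. Tags in the BED peak nearest the start, given below, were higher at *ATP6V1H* than at *ATP6V1B2* in replicate 1 and lower in replicate 2. The range of *ATP6V0D2* overlapped both *ATP6V1H* and *ATP6V0A1*. Replicate 1 was the higher one at 5 of the 8 starts.

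Tag counts, which are not divided by input, were then compared at the starts. The BED peaks within 1000 bp of the 8 starts held 269 tags in replicate 1 and 203 tags in replicate 2. The same windows held 13 and 11 input tags, and the input library held an estimated 21698071 tags by the list of replicate 1. These windows are ChIP peaks, listed because ChIP tags are high there. The gap to input was thus fixed in advance and carries no weight. Input tags were 1.444 and 1.222 per BED peak at the starts and 0.874 and 0.876 over all BED peaks. No input DNA peak, of 286 over the whole genome, lay in any of the 8 windows. With so few input peaks and windows of 0.614 Mb in all, none was likely to fall there, so this absence carries little weight.

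*ATP6V1D* had the most tags in the BED peak nearest its start, with 47 in replicate 1 and 43 in replicate 2, and 0 input tags in both windows. In their lists, 94.4% and 97.7% of the BED peaks had fewer tags. *ATP6V1A* had 41 and 28 tags, *ATP6V1C1* 40 and 27, and *ATP6V0D1* 38 and 28. In the middle were *ATP6V1B2*, with 23 and 26 tags, and *ATP6V1H*, with 26 and 20. At the other end, *ATP6V0D2* had 22 and 9 tags and *ATP6V0A1* 18 and 14. The medians of the lists were 17 and 13 tags, so *ATP6V0A1* lay close to the median in both replicates and *ATP6V0D2* below it in replicate 2.

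Scaled to library size, the tags within 1000 bp of the *ATP6V1D* start came to 38.4 per 10000000 in replicate 1 (exact 95% Poisson interval, 28.2 to 51.1) and 58.0 in replicate 2 (41.9 to 78.1). For *ATP6V0D2* they came to 18.0 and 12.1. As unscaled counts, the interval of *ATP6V1D* was 34.5 to 62.5 tags in replicate 1 and 31.1 to 57.9 in replicate 2, and that of *ATP6V0D2* was 13.8 to 33.3 and 4.1 to 17.1, so that they did not overlap within either replicate. In both replicates the unscaled interval of *ATP6V1D* did overlap those of *ATP6V1A* (29.4 to 55.6 and 18.6 to 40.5) and *ATP6V1C1* (28.6 to 54.5 and 17.8 to 39.3). The same held for *ATP6V0D1* (26.9 to 52.2 and 18.6 to 40.5) and *ATP6V1H* (17.0 to 38.1 and 18.6 to 40.5). The interval of *ATP6V1D* also overlapped that of *ATP6V1B2* in replicate 2 (17.0 to 38.1). In replicate 1 it overlapped that of *ATP6V0A1* (21.9 to 45.2). For *ATP6V1B2* the scaled values were 18.8 (11.9 to 28.2) and 35.0 (22.9 to 51.4), and for *ATP6V1H* they were 21.2 (13.9 to 31.1) and 37.7 (25.1 to 54.5). These intervals overlapped between replicates. In the BED peaks nearest the starts, the share of tags from replicate 2 ranged from 29.0% at *ATP6V0D2* (95% Wilson interval, 16.1% to 46.6%) to 53.1% at *ATP6V1B2* (39.4% to 66.3%). Over the 55655 matched BED peaks of the whole series it was 39.8%, which lay inside the interval of all 8 genes, although the BED peaks of *ATP6V1A* compared here did not overlap. By library size alone the share would be 37.7%, which lay inside the interval of 6 genes and just below those of *ATP6V1D* (37.8% to 58.0%) and *ATP6V1B2*.

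**Figure D2:**
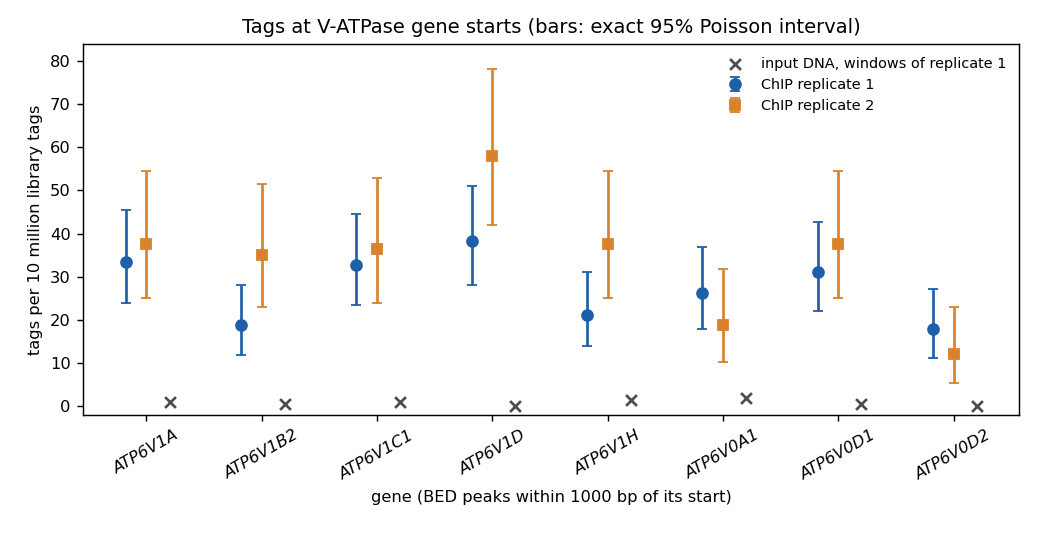
Tags of BED peaks within 1000 bp of each start, per 10000000 tags of the library, with exact 95% Poisson intervals for ChIP replicate 1 (circles) and replicate 2 (squares). Crosses give the input tags in the replicate 1 windows on the same scale, which stayed at or below 1.84 per 10000000. The lowest ChIP value was 12.1. The windows are ChIP peaks, listed because ChIP tags are high there, so this gap carries no weight.

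The windows as a whole were examined next. They spanned 0.614 Mb and held 99.4 peaks per Mb in replicate 1 and 68.4 in replicate 2. Over chromosomes 1 to 22 and X the densities were 36.0 and 26.8 per Mb. Those include the stretches between genes, and a density for genes in general was not analysed here. *ATP6V0A1* and *ATP6V0D1* held 15 and 12 of the 61 peaks of replicate 1, and 12 and 8 of the 42 of replicate 2. Among single genes the density was highest at *ATP6V0D1* in replicate 1, with 190.0 per Mb, and at *ATP6V0A1* in replicate 2, with 143.3. Chromosome 17, which carries *ATP6V0A1*, was itself denser than the average, at 65.6 and 52.4 per Mb. The lowest densities were 23.7 per Mb at *ATP6V1D* in replicate 1 and 13.9 per Mb at *ATP6V1C1* in replicate 2. In the respective other replicate these genes had 94.9 and 69.4 per Mb, so neither was below the density over the chromosomes in both. At *ATP6V1D* the 94.9 came from 4 peaks, 2 of which lay in the same start region. In replicate 2, *ATP6V0D2* (26.6) and *ATP6V1H* (27.1) were close to the density over the chromosomes.

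Merging gave 72 regions, of which 30 (41.7%) were shared. Over all merged regions 59.8% were shared, so the gene windows held proportionally fewer. Most regions found in 1 replicate lay below the median of their list. The 31 regions of replicate 1 only had a median fold enrichment of 5.88, with a range of 4.18 to 9.54, and the 11 regions of replicate 2 only had a median of 4.51, with a range of 3.01 to 5.90. Over all regions of a single replicate the medians were 5.35 and 5.04. The strongest one here, 9.54 in replicate 1 at *ATP6V1A*, exceeded 63.9% of its list. Over all peaks in the windows the median fold enrichments were 7.20 and 7.40, which were close to those of the whole lists (7.49 and 7.32). High values were thus found at particular positions and not throughout the windows. Of the peaks in the windows, 80.3% in replicate 1 and 71.4% in replicate 2 had q below 1e-05, compared with 82.4% and 78.2% of all peaks. Of the BED peaks, 30.6% and 29.0% had 0 input tags, compared with 46.1% and 46.9% of all BED peaks.

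**Figure D3:**
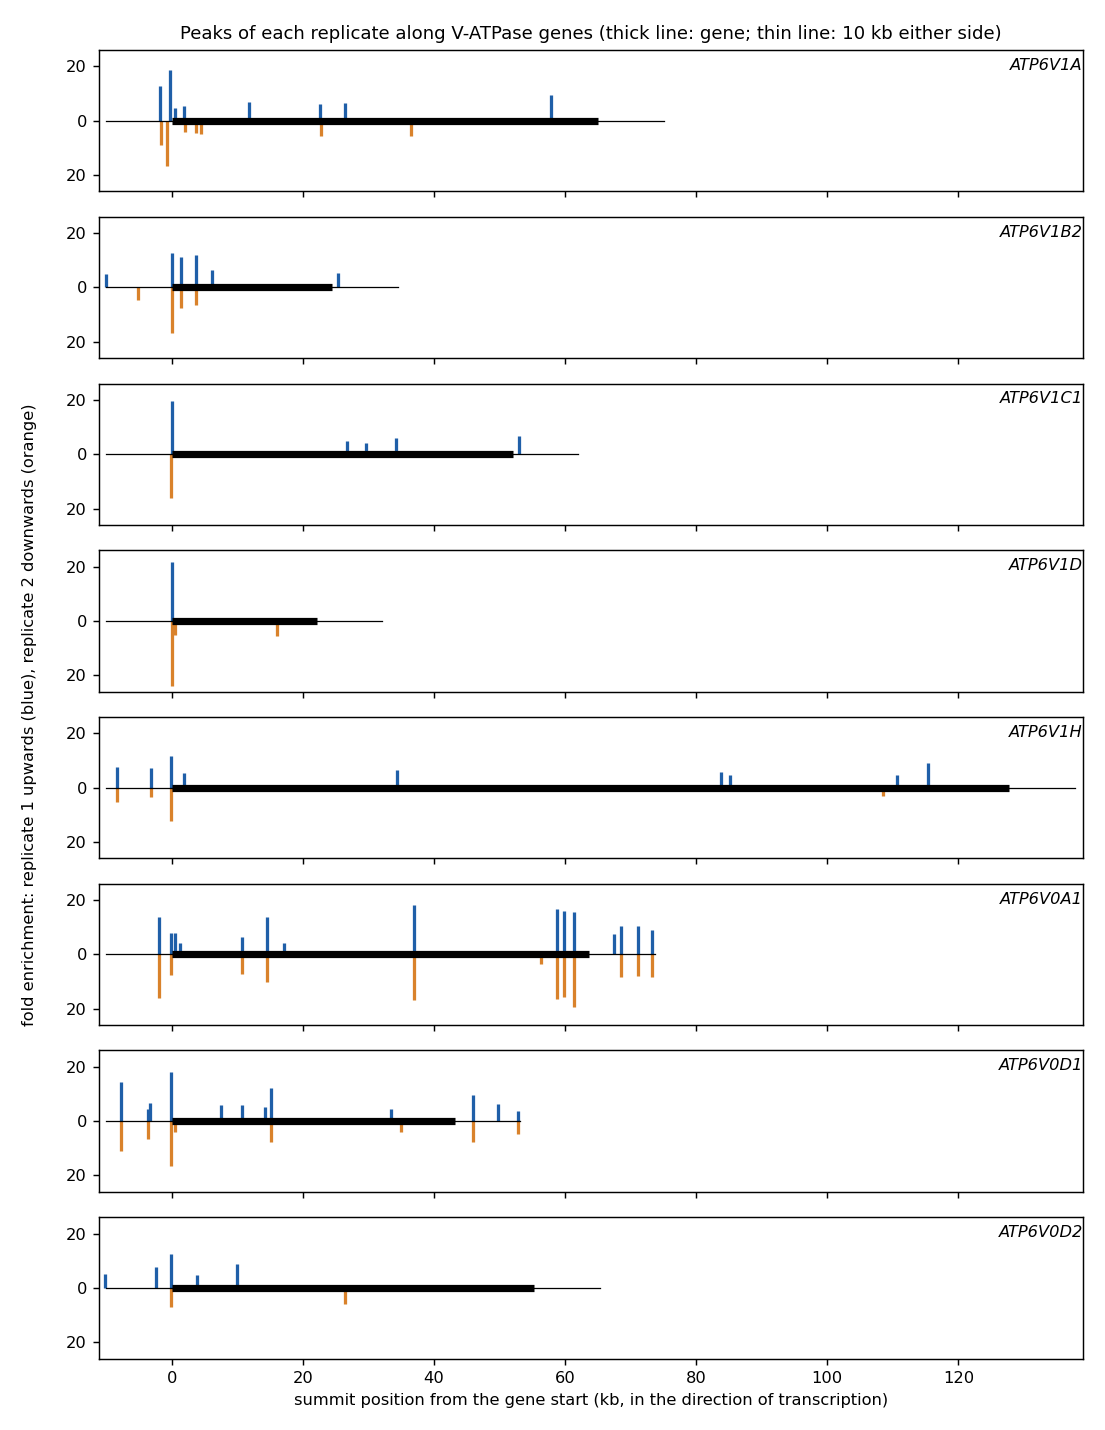
Peaks of both replicates along the 8 genes, drawn at the distance of the summit from the gene start in kb in the direction of transcription, with fold enrichment upwards for replicate 1 and downwards for replicate 2. The thick line is the gene and the thin line the 10 kb on either side. *ATP6V1C1* and *ATP6V1D* have their strong peak at the start, whereas *ATP6V0A1* has strong peaks 36.9 kb inside the gene and near its 3′ end.

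Away from the starts, 22 shared regions were found, of which 6 lay upstream of a gene, 11 inside and 5 downstream. Their median fold enrichments were 10.88 in replicate 1 and 7.76 in replicate 2, compared with 15.54 and 16.33 at the starts. They were also narrower, with a median width of 381 bp against 525 bp at the starts and 370 bp over all shared regions. Of the 30 shared regions, 10 (33.3%) lay above the upper quartile of fold enrichment in both lists, compared with 25.1% of all shared regions. These 10 regions comprised 5 starts and 5 other regions, and the latter were all at *ATP6V0A1*.

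**Figure D4:**
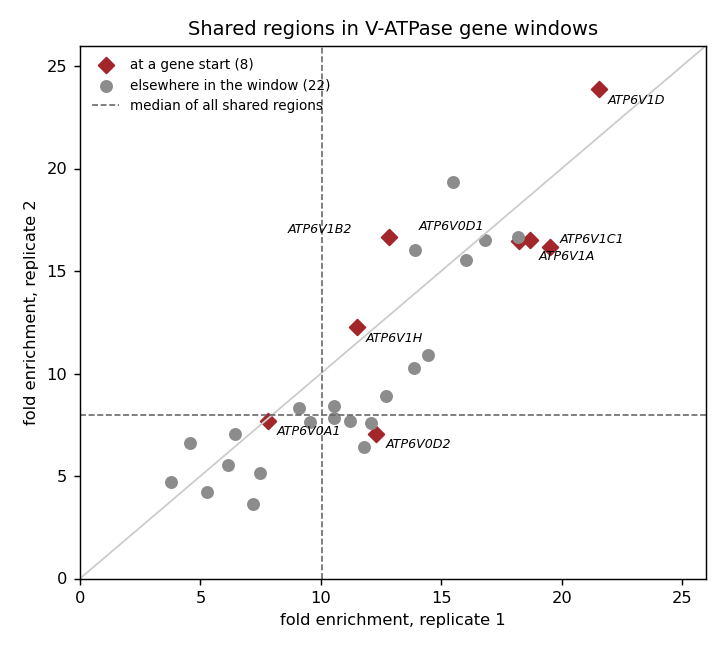
Fold enrichment in replicate 1 (horizontal axis) and replicate 2 (vertical axis) of the 30 shared regions in the gene windows, with the 8 at gene starts as diamonds and the other 22 as circles. Dashed lines mark the medians of all shared regions (10.06 and 7.99) and the grey diagonal marks equal values. The starts of *ATP6V0A1* and *ATP6V0D2* fall among the other regions, and 5 circles lie among the stronger starts, all of them at *ATP6V0A1*.

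*ATP6V0A1* held 11 of the 30 shared regions. In both replicates, 9 of its other 10 shared regions had a higher fold enrichment than the region at its start. The region 36.9 kb inside the gene, at chromosome 17 from 40647587 to 40648124, had fold enrichments of 18.19 and 16.68. Its BED peaks held 33 tags in replicate 1 and 26 in replicate 2, with 0 input tags in both windows.

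A group of 3 shared regions lay near the 3′ end of *ATP6V0A1*, within 2966 bp of each other and 4.9 kb to 2.4 kb before the end of the gene. The one from 40669495 to 40669901 had fold enrichments of 16.80 and 16.51, with 34 and 27 tags. The next, from 40670498 to 40670816, had 16.04 and 15.55, with 36 and 31 tags. The last, from 40671977 to 40672460, had 15.50 and 19.36, with 32 and 30 tags. Each of these exceeded the 18 and 14 tags of the BED peak at the start of the gene. Upstream of the gene, a region 1.9 kb before the start had fold enrichments of 13.91 and 16.04, and 3 further regions between 4836 bp and 9504 bp past its end had values from 7.82 to 10.53. No protein-coding gene other than *ATP6V0A1* lay in this window in the reference annotation, but exons and introns of the hg19 gene were not analysed here. Genes beyond the window were not considered, so the regions past the end need not belong to *ATP6V0A1*.

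*ATP6V0D1* had 6 shared regions, the most after *ATP6V0A1*. Besides its start, the strongest was 7.7 kb upstream, at chromosome 16 from 67522585 to 67522938, where fold enrichment was 14.44 and 10.91. A region 15.2 kb inside the gene had 12.07 and 7.58. The remaining ones, 3.7 kb upstream and 2819 bp and 9704 bp past the end, had values from 3.78 to 9.54. The gene window also contains *HSD11B2* and *AGRP* in the reference annotation, so these regions need not belong to *ATP6V0D1*.

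*ATP6V1A* had 4 shared regions by the narrowPeak lists. Besides the start and the upstream region given above, they lay 2.0 kb and 22.7 kb inside the gene and were weak, with fold enrichments of 5.27 and 4.21 at the former and 6.14 and 5.56 at the latter. A region 26.5 kb inside the gene was in replicate 1 only by narrowPeak, but its BED peaks overlapped, with 16 and 8 tags. *ATP6V1D*, *ATP6V1C1* and *ATP6V0D2* had no shared region other than that at the start.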

How the data were processed

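HA-PRCC-TFE3 ChIP-seq peaks (2 replicates) and input DNA peaks (1 library) were analysed. The members and lists were chosen with earlier results of these data known. The submitters' processing notes name the build hg19. The authors cut chromatin with micrococcal nuclease, precipitated with an anti-HA antibody and called peaks with MACS against input DNA. They describe the p-value threshold for binding sites as stringent, but its printed value cannot be read with certainty. The narrowPeak lists were used as deposited and reach down to a −log10 q of 1.31 in replicate 1 and 1.35 in replicate 2. Weak regions here need not be among the binding sites of the study. The files hold peaks per sample. The aligner and the handling of duplicates are not given in the sources used here. The deposited narrowPeak lists hold a fold enrichment ratio, −log10 p and −log10 q values and a score of 10 times the −log10 q value. The deposited BED lists, whose headers are displaced and which were read by position, hold a score, tag counts, a signal per 10000000 library tags, scaled input tags as a signal, fold ratios and p-values. The tool behind the BED lists is not named. A fraction for the concentration of tags and a clonal ratio in the deposited BED lists were not analysed.

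Library size was estimated by dividing summed tag counts by summed scaled values. The input tags under a peak followed from its tags and fold, with 0.5 standing for 0 tags. Of these values, 100% came out whole (tolerance 0.05 tag, or that fraction of a value above 1 tag). Merging and recovery were tested on simulated data. All 8 genes were named, each with its regions within 1000 bp of the start and its strongest region elsewhere. No hg19 sequence or annotation was used, and hg38 annotation served only for neighbouring genes. Python 3.11.15, pandas 2.3.3, numpy 2.4.6 and SciPy 1.17.1 were used.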

Additional observations from a re-analysis of the deposited data

How the results depend on the processing

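Across 36 alternative values, 28 differed from the reported ones by no more than the limit chosen (a factor of 1.5 for counts and 0.15, the SD of the 2 replicate medians, for median fold enrichment) and 8 moved. With the gene alone in place of the 10 kb window, 18 regions were shared instead of 30, and the median fold enrichment was 6.46 in replicate 1 and 7.06 in replicate 2. With 5000 bp the latter median was 7.22. With q below 1e-05 the medians were 8.62 and 8.38, by construction higher because weak peaks were left out. The BED fold over input gave 37.24 and 38.01, on another scale in which 0 input tags count as 0.5. All 8 genes kept a shared region at the start under every setting except 2: with the BED lists, and with summits within 100 bp, 7 did, and the exception was *ATP6V1A* both times. With either replicate alone (without replicate 1 or without replicate 2) all 8 had a peak there. That follows from the definition of a shared region. Likewise, widening the start to 2500 bp could not lower the count. These outcomes were fixed in advance and carry no weight, although they are counted among the 28. The settings for summits and reciprocal overlap at starts, and the tags of the nearest BED peak only, were chosen after seeing the data. No paired analysis was possible because only the ChIP labels carry replicate numbers. Depth limits the single regions: with 7418533 tags, replicate 2 cannot show that a weak region of replicate 1 is absent.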

Other observations

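In the windows of the 8 genes, the strongest regions found in replicate 1 alone lay inside *ATP6V1A*, 57.9 kb from the start (fold enrichment 9.54), and inside *ATP6V1H*, 115.4 kb from the start (9.01), followed by a region 9.9 kb inside *ATP6V0D2* (8.62). The strongest region found in replicate 2 alone was 26.4 kb inside *ATP6V0D2* (5.90). The *ATP6V0D2* window thus held unshared regions of each replicate, 4 in replicate 1 and 1 in replicate 2, beside its single shared start. Only 1 window, that of *ATP6V1D*, had more peaks in replicate 2 than in replicate 1, with 4 against 1. There, 2 of the 4 replicate 2 peaks overlapped the single replicate 1 peak.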
